A study of Mus musculus with 4 samples.

Results

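Tagln and Actg2 were the 2 genes described here, picked by exact symbol from the authors' deposited table. It held transcripts that differed by 1.5-fold or more between treated and untreated cells and had a listed p-value under 0.05. That p-value was unadjusted, and the FDR p-value listed beside it was above 0.05 for both genes. Each symbol had 1 transcript cluster, the unit in which the array's values are given, so 2 of 559 clusters in that table and of 35557 measured in all were members. Whether each of the 35557 stands for a gene is not known here. C2C12 cells are mouse myoblasts, an established line whose cells fuse to myotubes when they differentiate. Confluent C2C12 cells were kept for 48 h in a basal adipogenesis medium (AM), alone in the Ctrl group (2 arrays) or with Bex at 10 µM in the Bex group (2 arrays), so both groups shared the adipogenic medium. The labels leave Bex unexplained; what is known of the study identifies it as bexarotene, which activates retinoid X receptors. The labels mention 2 batches of cells but tie no array to a batch. Whether each group drew on both batches is therefore unknown, and a batch effect cannot be told apart from the difference between groups. The spread between arrays of a group may also be partly technical.

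Tagln encodes transgelin, an actin-binding protein of the calponin family that is abundant in smooth muscle, and Actg2 encodes the gamma actin of enteric smooth muscle. Both are classical targets of serum response factor (SRF), a transcription factor that works with the coactivator myocardin in smooth muscle and with myocardin-related factors (MRTFs) in many cells when actin filaments assemble. TGF-beta signalling is known to raise Tagln in mesenchymal cells, and cultured myoblasts and fibroblasts can express smooth muscle genes without being smooth muscle cells. The cell type label could be checked only in part. Of 9 markers listed for skeletal myoblasts and myotubes, Myh1, Myh3, Ttn and Ckm were named by the deposited table, while Myod1, Myf5, Myog, Des and Actn2 were not analysed here. Of the smooth muscle markers that define that lineage, neither Myh11, Cnn1 nor Acta2 was analysed here, so the names of Tagln and Actg2 describe the genes and not a cell type in the dish.

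Both genes were lower in Bex-treated cells, at 48.5% (Tagln) and 54.7% (Actg2) of the Ctrl level. Tagln stood at 6.86 and 6.64 on the Ctrl arrays and at 5.65 and 5.76 on the Bex arrays, on the log2 scale of the deposited values. Actg2 stood at 9.48 and 9.37 on the Ctrl arrays and at 8.55 and 8.56 on the Bex arrays. For each gene both Bex arrays were low, both Ctrl arrays were high, and the groups did not overlap. Among all clusters, 24.2% had both Bex arrays below both Ctrl arrays, and 2.29% had this together with a difference of 1.5-fold or more. Of the 28888 clusters numbered no lower than the first one in the deposited table, the shares were 25.8% and 1.2%. These shares are given as background only, since the members were chosen on this contrast and its values support nothing further. In RNA from whole dishes, fewer cells that carry a transcript and less of it per cell cannot be told apart.

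**Figure D1:**
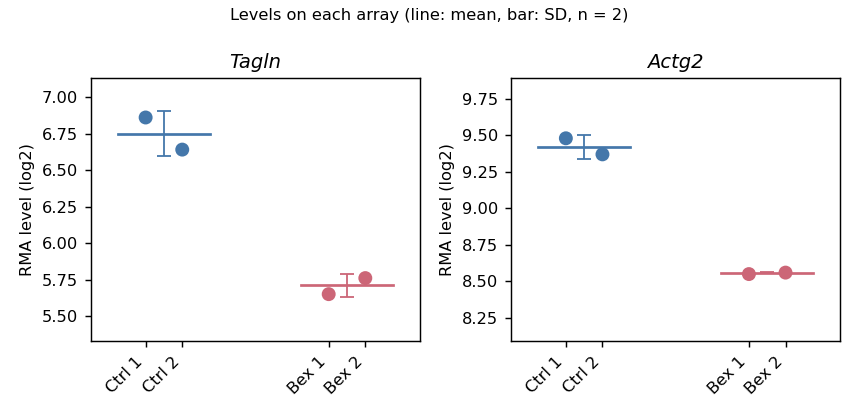
RMA level (log2) of Tagln (left) and Actg2 (right) on each of the 4 arrays, with the group mean as a line and the SD as a bar (n = 2). For Tagln the Ctrl arrays lay at 6.86 and 6.64 and the Bex arrays at 5.65 and 5.76, and for Actg2 the Bex arrays, at 8.55 and 8.56, lay closer together than the Ctrl arrays.

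Tagln, the actin-bundling calponin relative, averaged 6.75 ± 0.156 (SD, n = 2) in Ctrl and 5.71 ± 0.078 (SD, n = 2) in Bex. The log2 difference, Bex minus Ctrl, was −1.04 ± 0.12 (SE of the limma fit), or 2.06-fold lower. The lowest Ctrl array and the highest Bex array were 0.88 apart, which was larger than the range within Ctrl (0.22) or within Bex (0.11). Taken by array number, the difference was −1.21 between the first arrays and −0.88 between the second ones, so its size varied more than that of Actg2. Tagln lay 1.08 and 0.85 above the array median in Ctrl, and 0.12 below it and 0.01 above it in Bex. On every array it was above 4.57, the level under which the dimmest 30% of clusters lay, although no detection call was used here.

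Actg2, the smooth muscle actin, averaged 9.42 ± 0.0829 (SD, n = 2) in Ctrl and 8.56 ± 0.00115 (SD, n = 2) in Bex. The log2 difference was −0.87 ± 0.09 (SE), or 1.83-fold lower, with −0.93 between the first arrays and −0.81 between the second. The nearest arrays of different groups were 0.81 apart, against a range of 0.12 within Ctrl. The near identity of both Bex values rests on 2 arrays and is no measure of precision. The actin genes are close copies of each other and their probes may cross-hybridise, so how much of the Actg2 signal came from other actin genes is uncertain. Levels of Tagln and Actg2 were not set against each other, because different probes report them.

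The differences of the 2 genes were close in size. The log2 difference of Tagln was 0.18 further below zero than that of Actg2 (−0.18), with −0.28 between the first arrays and −0.07 between the second. This gap was not tested, because both genes were chosen on this contrast. The authors' deposited table held 212 lower clusters (0.596% of all measured) and 347 higher ones (0.976%). Among the 212 lower clusters, Tagln ranked 39 and Actg2 ranked 72 by log2 difference, counted from the most negative. Their median was −0.76, against −0.01 over all 35557 clusters and 0.87 over the 347 higher ones. Over all clusters, 0.664% had a log2 difference as low as that of Tagln or lower, and 1.13% one as low as that of Actg2. With 6669 low-numbered clusters set aside, none of which has a name here, these shares were 0.187% and 0.346% of 28888. The deposited table's cutoff lay close to the values of Grem1, Il4ra and Fam115c, at −1.51 each on its signed fold scale. Clusters just outside that cutoff carry no name here.

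**Figure D2:**
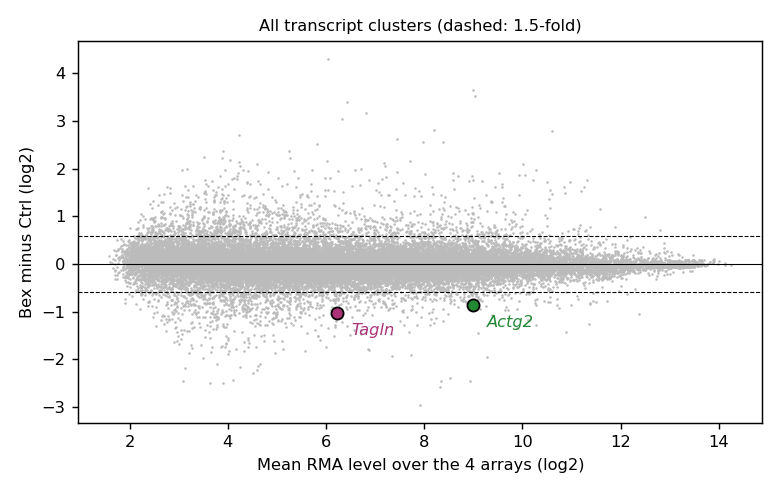
Difference between groups (Bex minus Ctrl, log2) against the mean RMA level (log2) of the 4 arrays for all 35557 clusters, with dashed lines at 1.5-fold. Tagln, at −1.04, and Actg2, at −0.87, lie below the lower line, and other clusters lie further from zero in both directions.

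The authors' own averages had the same direction, which was fixed in advance because the genes were picked from the table that holds them. The authors' deposited table listed Tagln at 6.97 in Ctrl and 5.97 with Bex, a signed fold change of −1.99. The same authors' deposited table listed Actg2 at 9.41 in Ctrl and 8.60 with Bex, a signed fold change of −1.75. For Actg2 the group means of the value table lay within 0.01 (Ctrl) and −0.04 (Bex) of those averages. For Tagln they lay at −0.22 and −0.26 relative to them, in both groups alike, so the level of Tagln depends on which deposited table is read while its difference moved little.

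Across all clusters limma called 0 of 35557 (0%) at an adjusted p of 0.05, with 4189 at an unadjusted p under 0.05. With the 6669 low-numbered clusters left out, a later choice, limma called 297 of 28888, so the count of 0 depends on including them. In the variance-trend fit the prior variance was allowed to depend on mean level. Over all 35557 clusters that fit called 427 (1.2%), of which 156 (0.439%) were lower and 271 (0.762%) higher. Below, "passed" refers to the variance-trend fit, and limma without the trend, over all 35557 clusters, passed no member of any list. Actg2 passed (limma with variance trend, adjusted p 0.0257) and Tagln did not (adjusted p 0.0514 in the same fit). Both were chosen on this contrast, so these values are description only. Without 1 array the variance-trend fit called 0 to 32 clusters, with no call left once a Ctrl array was omitted, 23 when the first Bex array was omitted and 32 when the second was. Gene lists were counted only through genes that the deposited table names, which met its cutoffs on the same arrays. The counts therefore describe the table and are no independent evidence of a direction. For the same reason, counts of list genes that passed cannot be set against the shares over all clusters.

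In the list called smooth muscle contractile genes, 1 of the 28 other listed genes was named. It was Cav1, the main protein of caveolae, the membrane pits that are dense on smooth muscle and fat cells. Cav1 stood at 8.76 and 8.62 in Ctrl and at 6.63 and 6.94 in Bex, with no overlap. It fell 3.75-fold (log2 difference −1.91 ± 0.14, SE), and it passed. With it, all 3 named genes of this list were lower (median −1.04), but Tagln and Actg2 among them were chosen on this contrast. The remaining 27, among them Acta2, Cnn1, Myh11 and Smtn, were not analysed here. In the actin and calponin families Tagln and Actg2 were the 2 named genes of 12, so whether other actins or calponins differed was not analysed here.

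Among the other 34 listed SRF and MRTF regulators and targets, 3 were named, and they did not all go the way of Tagln and Actg2. Egr1, an immediate early transcription factor, stood at 9.98 and 9.85 in Ctrl and at 8.80 and 8.90 in Bex. It fell 2.10-fold (log2 difference −1.07 ± 0.10) and passed. Thbs1, a matrix glycoprotein that activates latent TGF-beta, fell 1.72-fold (log2 difference −0.78 ± 0.10) and passed as well. Ankrd1, a muscle ankyrin repeat protein, went the opposite way, from 11.50 and 11.49 in Ctrl to 12.31 and 12.23 in Bex (log2 difference 0.77 ± 0.08), and passed. Srf, the myocardin-related factors and the cytoplasmic actins Actb and Actg1 were not analysed here.

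Of the other 33 listed TGF-beta ligands, receptors and targets, 7 were named, 3 higher and 4 lower. All 4 lower genes passed. They were Bmp4, a ligand of the BMP branch (log2 difference −1.39 ± 0.08), Thbs1, and the latent TGF-beta binding proteins Ltbp2 (−0.76 ± 0.09) and Ltbp1 (−0.64 ± 0.09). Of the 3 higher genes 1 passed. Inhba, the activin A subunit, had a log2 difference of 1.12 ± 0.22 and did not pass, with Ctrl arrays at 8.43 and 7.86. Id2, an inhibitor of basic helix-loop-helix factors, had one of 0.95 ± 0.14 and did not pass. The named TGF-beta genes were therefore split in direction, with Tagln on the lower side.

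Named genes of the list called skeletal muscle contractile genes, none of them an actin or a calponin relative, lay on the other side of zero. The list is broad and also holds Ckm and Ryr1, which encode an enzyme and a calcium channel. Of 52 listed skeletal muscle contractile genes 15 were named, all 15 were higher, and 10 passed, with a median log2 difference of 0.96 and a range from 0.72 to 2.06. Tnni1, the slow skeletal troponin I, rose from 11.05 and 10.93 to 11.80 and 11.72 (log2 difference 0.77 ± 0.09). Neb, the giant protein along the thin filament, stood at 8.97 and 8.89 in Ctrl and at 10.07 and 9.95 in Bex (1.08 ± 0.09). Lmod2, a leiomodin that nucleates actin in striated muscle, rose by 0.72 ± 0.10. The highest values of the list belong to myosin heavy chain genes, close copies whose probes may cross-hybridise, so their separate values are uncertain.

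**Figure D3:**
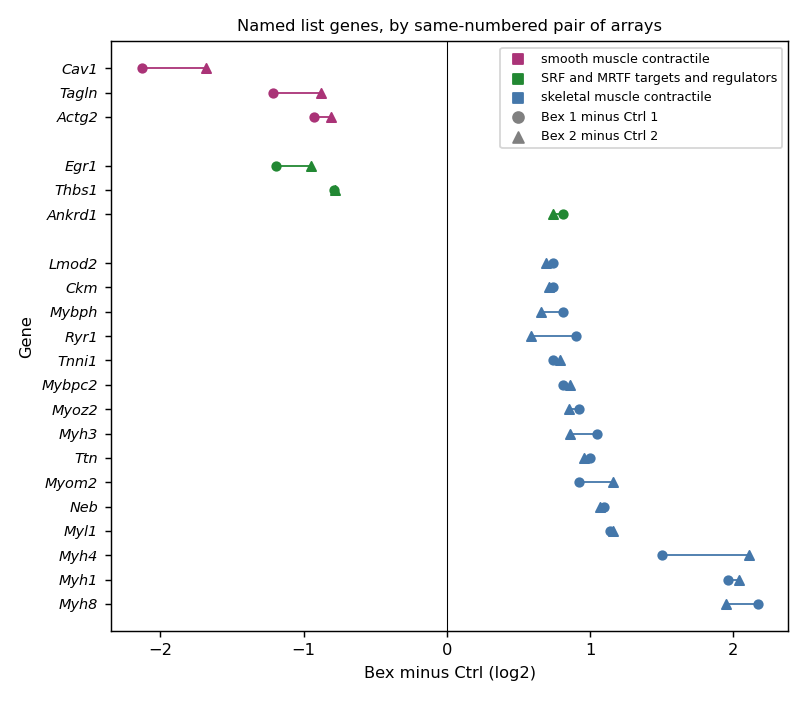
Difference between same-numbered arrays (Bex minus Ctrl, log2) for each named gene of 3 lists, with circles for the first arrays and triangles for the second. All 3 named genes of the smooth muscle list (Cav1, Tagln and Actg2) lie left of zero. The 3 other named SRF and MRTF genes lie on both sides, and all 15 named genes of the skeletal contractile list lie right of zero.

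Named markers of other cell states also differed between the groups, in both directions, and their part in the result was not tested. The linear levels of the 4 named skeletal myoblast and myotube markers, of 9 listed, summed to 2110 to 2370 in Ctrl and to 3830 to 4610 in Bex. Those of the 4 named adipocyte markers, of 5 listed (Pparg, Fabp4, Plin1 and Lpl), summed to 1310 to 1350 in Ctrl and to 4180 to 4280 in Bex. Each sum adds signals of different probes, so genes of high level weigh most. In the skeletal sum these were Myh3 and Ckm, which did not pass, while Ttn and Myh1 did. In the adipocyte sum it was Lpl. For fibroblasts 1 of 5 listed markers was named, the matrix proteoglycan Dcn, at 7.40 and 7.54 in Ctrl and 6.65 and 6.73 in Bex, and it did not pass (log2 difference −0.78 ± 0.10). None of the 3 endothelial and none of the 3 macrophage markers was analysed here.

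Likeness to each gene was measured as the root mean square difference, over the 4 arrays, between log2 values centred on each gene's own mean. Among 535 other named genes the nearest to Tagln was Egr1, at 0.0325. It was followed by Il2rg, the shared gamma chain of several cytokine receptors (0.0477), the sialyltransferase gene St3gal4 (0.0653), the xylosyltransferase gene Gxylt2 (0.0681) and Crip1, a small LIM domain protein (0.0748). Their log2 differences ran from −1.17 ± 0.10 for Gxylt2 to −0.94 ± 0.13 for St3gal4. Nearest to Actg2 was Col4a2, a basement membrane collagen chain, at 0.0141, with 7.94 and 7.79 in Ctrl and 6.98 and 6.99 in Bex. The next were Slc43a3, a solute carrier (0.0271), the lectin gene Clec2d (0.0368), Tsc22d3, known as a glucocorticoid-induced gene (0.0381), and the phospholipase gene Pld1 (0.0444). Tagln and Actg2 were 0.103 from each other, which made Actg2 number 15 in order of likeness to Tagln and Tagln number 60 in order of likeness to Actg2. Neither was therefore among the 5 genes nearest to the other. The measure uses the same 4 values that chose the genes and is a description of these arrays.

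**Figure D4:**
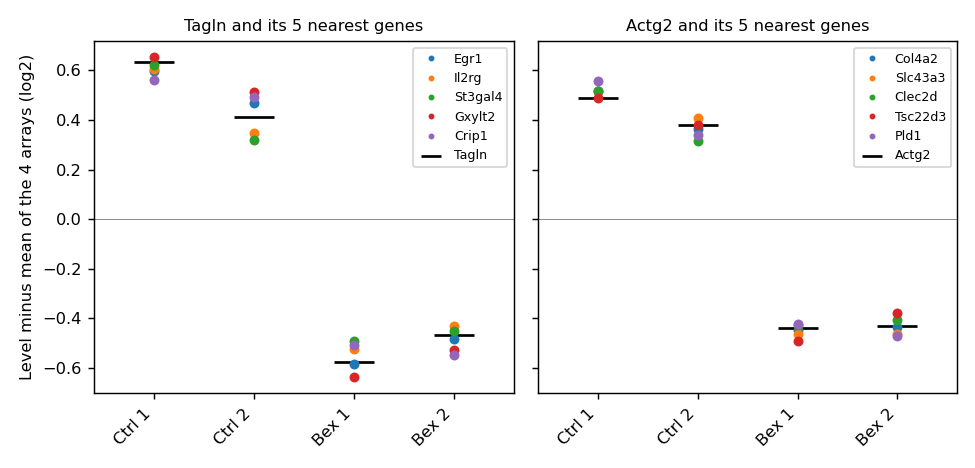
Level minus the gene's mean over the 4 arrays (log2) for Tagln (left, black bars) and Actg2 (right, black bars) and, as coloured points, the 5 genes nearest to each. These genes were picked for their closeness on the same arrays, with root mean square differences of 0.0325 to 0.0748 for Tagln and 0.0141 to 0.0444 for Actg2.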

How the data were processed

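RNA of 4 C2C12 samples was amplified and labelled with biotin, per the labels' protocols, for Affymetrix Mouse Gene arrays. Per the labels, the log2 values the authors deposited come from RMA over core exons in their Expression Console software. Per the file headers, their second table gives log2 averages, a signed fold change (a score) and both an ANOVA and an FDR p-value. Software versions, genome build and annotation are not given in the sources. Because RMA equalises the arrays, a change common to most transcripts cannot be seen.

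Arrays were grouped by title. Any 2 arrays shared 30 to 58 identical values, so none was a duplicate. Bex minus Ctrl was fitted over 35557 clusters with limma 3.58.1 (lmFit, eBayes) in R 4.3.3, with Benjamini-Hochberg adjustment and no filter or covariate. The fit was also run on simulated data, with results not reported here. Same-numbered arrays did not deviate together (Pearson r across clusters 0.00786), so the numbers were not used as pairs in the main fit. Differences between same-numbered arrays are given as description only. Names came from the authors' table, where 545 clusters had 1 symbol and 14 several. For a gene with several clusters the one of highest mean was used, and RefSeq (GRCm38.p6) served to match older symbols and to find neighbours. Named were Tagln, Actg2, the named members of the smooth muscle, SRF, TGF-beta and actin lists (1 is not reported here) and the 5 genes nearest to each member; skeletal and marker genes are examples outside this rule. The members and the 10 lists were chosen with earlier results of these data known. Counts and plots were made in Python 3.11.15 (pandas 2.3.3, numpy 2.4.6, matplotlib 3.10.9). Alternatives were other normalizations, a filter, a variance trend, the replicate number as a block and each array left out.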

Additional observations from a re-analysis of the deposited data

How the results depend on the processing

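The difference of Tagln lay between −1.15 and −0.93 and that of Actg2 between −0.93 and −0.81 without any 1 array. In same-numbered pairs it was −1.21 and −0.88 for Tagln and −0.93 and −0.81 for Actg2, and by the authors' averages −0.81 for Actg2. A median shift gave −1.02 and −0.84 and quantile normalization −1.02 and −0.89 for Tagln and Actg2, and with the replicate block, which changes only the error, the values stayed at −1.04 and −0.87. The count of 0 clusters stayed at 0 with the replicate block (3782 at an unadjusted p under 0.05 and a lowest adjusted p of 0.305), with a median shift, with quantile normalization and without any 1 array. It became 427 with the variance trend and 105 without the lowest 30% of clusters. Settings added after the data were seen gave 297 without cluster IDs below those of the authors' table, 80 at an adjusted p of 0.1, 2292 by 1.5-fold alone, and, with the trend, 23 without Bex 1, 32 without Bex 2 and 0 without either of the Ctrl arrays. Shares of clusters without these IDs, given beside Tagln and Actg2, were also added then. The cause of these changes was not tested. The 5 genes nearest to each member were the same 5 after a median shift and without the lowest clusters, and the direction of list genes was the same when clusters of 1 gene were averaged. Having 2 arrays per group limits every value.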

Other observations

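Of the 5 protein-coding genes on either side of Tagln on chromosome 9, in RefSeq order, 0 of 10 were in the authors' deposited table. Of the 10 around Actg2 on chromosome 6, 1 was, Mthfd2, an enzyme of mitochondrial folate metabolism, which was higher (log2 difference 0.69 ± 0.11, SE, n = 2 per group) and did not pass the variance-trend fit. As background, that table held 559 of all 35557 clusters, or of 28888 without the low-numbered ones, so so few neighbours in it are no result about them. Genes outside that table were not analysed here.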
